A study of Homo sapiens with 12 samples.

Results

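Expression of 10 genes that write, remove or maintain DNA methylation or that form Polycomb repressive complex 2 was examined in 2 Hodgkin lymphoma lines. The genes are DNMT1, UHRF1, DNMT3A, DNMT3B, TET1, TET2, TET3, EZH2, EZH1 and SUZ12. They were chosen by name, and each was read from its probe set, the group of array probes that reports 1 transcript. Where a gene has several probe sets with that single symbol, the one with the highest mean level stands for it. All 10 were found among the 18404 genes with a probe set of 1 symbol, of 32321 probe sets in all. UHRF1 and TET2 have 2 such probe sets and the other members have 1.

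L-1236 and U-HO1 are established lines of Hodgkin lymphoma, a tumour derived from B cells. Each line was transduced with an shRNA against GATA-3, a transcription factor best known from T-helper 2 cells, or with control shRNAs that have no function. Growth for 3 days was followed by sorting of GFP-positive cells, and from each sample the RNA of 25000 cells was amplified and hybridised to 1-colour whole-transcript arrays. There were 4 groups of 3 arrays, which are L-1236 with control shRNA, L-1236 with GATA-3 shRNA, U-HO1 with control shRNA and U-HO1 with GATA-3 shRNA. All groups carry a GFP vector and an shRNA, and an untransduced culture is not among them. The medium was RPMI 1640 for L-1236 and IMDM for U-HO1, so a difference between the lines and a difference between the media cannot be told apart. The samples are called independent without a statement of how. The p-values therefore reflect the spread among these arrays, which may be technical. Each line is 1 established culture and stands for itself, not for a class of tumours.

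In mammals, DNMT3A and DNMT3B place methyl groups on cytosines that had none, and DNMT1 copies the pattern to the new strand after replication. UHRF1 brings DNMT1 to newly replicated DNA. The TET enzymes oxidise the methyl group, which opens the way to its removal. Polycomb repressive complex 2 methylates lysine 27 of histone H3, with EZH2 or EZH1 as the catalytic subunit and SUZ12 as a scaffold that both need. EZH2, DNMT1 and UHRF1 are known to be expressed most in dividing cells, under E2F factors among others, and germinal centre B cells, from which Hodgkin cells descend, are known for high EZH2.

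The promoters of 6 members are shown because the arrays separate these genes by how they varied. UHRF1, DNMT1, EZH2 and SUZ12 were high on the same L-1236 arrays, EZH1 was not, and DNMT3A had the largest difference between the lines of the 10. The windows are those of RefSeq on GRCh38.p14, 250 bases before to 50 after the first listed start, read 5′ to 3′ on the gene's strand. All 10 members were matched by symbol. Capitals mark E2F words (TTTCCCGC, TTTCGCGC, TTTGCCGC or TTTGGCGC) and the CCAAT word bound by NF-Y, each on either strand. No E2F word overlaps a CCAAT word in these windows. The EZH2 window lies at chr7:148884242-148884541 on the minus strand, UHRF1 at chr19:4909251-4909550 on the plus strand, DNMT1 at chr19:10194904-10195203 on the minus strand, SUZ12 at chr17:31936757-31937056 on the plus strand, EZH1 at chr17:42744991-42745290 on the minus strand and DNMT3A at chr2:25342434-25342733 on the minus strand.
EZH2: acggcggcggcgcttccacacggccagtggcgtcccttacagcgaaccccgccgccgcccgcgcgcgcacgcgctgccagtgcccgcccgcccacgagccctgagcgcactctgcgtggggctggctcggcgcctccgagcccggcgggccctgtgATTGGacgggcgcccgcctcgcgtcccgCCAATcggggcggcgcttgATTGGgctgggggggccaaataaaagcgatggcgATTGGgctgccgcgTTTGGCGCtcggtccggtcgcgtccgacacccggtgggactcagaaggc
UHRF1: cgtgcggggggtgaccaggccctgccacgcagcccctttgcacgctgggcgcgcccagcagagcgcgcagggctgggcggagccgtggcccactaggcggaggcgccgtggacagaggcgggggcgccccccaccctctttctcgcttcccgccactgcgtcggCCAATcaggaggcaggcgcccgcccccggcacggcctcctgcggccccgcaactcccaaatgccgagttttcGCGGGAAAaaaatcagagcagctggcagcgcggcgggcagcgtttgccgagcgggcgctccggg
DNMT1: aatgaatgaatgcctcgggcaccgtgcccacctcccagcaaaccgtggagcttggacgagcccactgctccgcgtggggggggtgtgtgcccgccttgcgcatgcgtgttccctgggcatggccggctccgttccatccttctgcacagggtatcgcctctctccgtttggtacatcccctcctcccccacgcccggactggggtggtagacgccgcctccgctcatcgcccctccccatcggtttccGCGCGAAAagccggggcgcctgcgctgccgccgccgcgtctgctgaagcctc
SUZ12: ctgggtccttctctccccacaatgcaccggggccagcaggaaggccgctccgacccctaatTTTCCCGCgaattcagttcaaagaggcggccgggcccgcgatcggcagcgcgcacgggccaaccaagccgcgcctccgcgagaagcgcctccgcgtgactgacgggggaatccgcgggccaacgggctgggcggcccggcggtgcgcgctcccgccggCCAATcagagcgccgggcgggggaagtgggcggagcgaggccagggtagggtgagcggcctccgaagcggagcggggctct
EZH1: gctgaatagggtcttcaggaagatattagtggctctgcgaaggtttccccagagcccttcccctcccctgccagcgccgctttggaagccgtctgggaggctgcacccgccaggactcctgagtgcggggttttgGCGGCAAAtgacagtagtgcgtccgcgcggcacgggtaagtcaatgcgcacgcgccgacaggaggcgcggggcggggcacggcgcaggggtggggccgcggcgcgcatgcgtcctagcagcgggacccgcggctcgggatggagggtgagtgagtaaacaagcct
DNMT3A: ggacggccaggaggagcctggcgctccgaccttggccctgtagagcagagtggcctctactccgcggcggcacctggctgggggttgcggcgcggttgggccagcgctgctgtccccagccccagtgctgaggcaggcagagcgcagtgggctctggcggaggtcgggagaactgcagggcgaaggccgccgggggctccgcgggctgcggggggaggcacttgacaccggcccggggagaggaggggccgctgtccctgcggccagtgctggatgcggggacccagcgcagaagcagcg

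An E2F word was found in 5 of the 10 members' windows, those of EZH2, UHRF1, DNMT1, SUZ12 and EZH1, and in 3.33% of the 27305 first-start windows of all genes. It begins 1 base after the start in EZH2, 2 bases before it in DNMT1, 14 before it in UHRF1, 115 before it in EZH1 and 189 before it in SUZ12. CCAAT was found in 4 of 10, with 4 copies in EZH2 and 1 each in UHRF1, SUZ12 and DNMT3B, against 35.7% of all windows. None of the 10 windows, nor those at other listed starts, held a GATA word (GATA after A or T and before A or G, either strand), which 25.5% of all first-start windows hold. The 10 windows held a median of 30 CpG dinucleotides, from 3 in DNMT3B to 46 in EZH2, beside a median of 14 over all windows. The NRF1 word was found in 0 of 10 and in 1.36% of all windows. These are matches of letters in short windows, and no binding was measured.

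The target of the shRNA was read first on every array. GATA3 read 10.29, 10.69 and 9.95 on the log2 scale on L-1236 control arrays 1, 2 and 3, and 10.80, 10.00 and 10.24 on the L-1236 arrays labelled GATA-3 shRNA. In U-HO1 it read 11.24, 10.90 and 10.24 on the control arrays, and 11.07, 10.12 and 10.22 on those labelled GATA-3 shRNA. On 4 arrays, labelled GATA-3 shRNA replicate 1 and control replicate 3 of each line, GATA3 is here said to have gone against the label. In L-1236 they were the highest and the lowest array of the line. In U-HO1 this held only in part. There GATA-3 replicate 1 lay above control replicates 2 and 3 but under control replicate 1. U-HO1 control replicate 3 lay under GATA-3 replicate 1 but just above GATA-3 replicates 2 and 3. The knockdown groups are therefore named here by their labels, and results are also given without these 4. Array medians lay between 6.96 and 7.09, and arrays of 1 line correlated over probe sets at 0.986 to 0.995. Of 6 Hodgkin markers, 3 were higher in U-HO1 on the control arrays, which are TNFRSF8 (CD30) by 0.68, CCL17 by 0.76 and FSCN1 by 1.39. CCL22 was lower by a log2 difference of -2.05, at 6.75 to 7.39 in U-HO1 and 8.31 to 9.69 in L-1236. IRF4 at 11.04 to 11.55 and FUT4 at 8.59 to 9.00 over both lines did not pass. Of 5 measured B-cell markers, PAX5 and CD22 were lower in U-HO1, by log2 differences of -1.97 and -2.54, and MS4A1, CD79A and CD79B, at 5.63 to 7.01, did not pass. The T-cell genes CD3D, CD3E and CD3G read 5.78 to 6.32. Background signal is not given for these values, so no level is called absent. Of the 10 members, 8 lay above the median probe set, and DNMT3B at a mean of 6.81 and TET1 at 5.63 did not.

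Between the lines, U-HO1 had less DNMT3A and TET3 and more EZH2 than L-1236 on the control arrays. They were the 3 of 10 members whose adjusted p was under 0.05, which makes 1 higher and 2 lower members. The lines differ widely in these data: 25.8% of all probe sets passed that threshold, 13.3% higher and 12.5% lower in U-HO1, and 32.0% of the 18404 genes, so the count of members is near the background. DNMT3A alone also had a fold of at least 1.5, which 13.1% of probe sets had along with the adjusted p. The median difference of the 10 was -0.06, U-HO1 minus L-1236, beside -0.002 over all genes. With both labels together, 6 arrays against 6, 5 of 10 members passed, 2 higher and 3 lower, where 35.1% of probe sets did. On the arrays labelled GATA-3 shRNA alone 3 of 10 passed, the same genes in the same directions, where 24.7% of probe sets did. Without L-1236 control replicate 2, 5 of 10 members passed, where 25.1% of probe sets did, and without the 4 arrays on which GATA3 went against the label 2 of 10 passed, where 18.2% did. Each sample pools sorted cells of 1 line, so fewer cells that express a gene and less of its RNA per cell cannot be told apart.

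Separation of the arrays was also counted. On the control arrays, 4 of 10 members had all U-HO1 values on 1 side of all L-1236 values, DNMT3A, DNMT3B and TET3 below and EZH2 above, against 34.7% of probe sets. Over all 12 arrays the same 4 members were separated, against 23.3% of probe sets. The plot of the members by array shows these 4 beside the 6 that overlap.

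**Figure D1:**
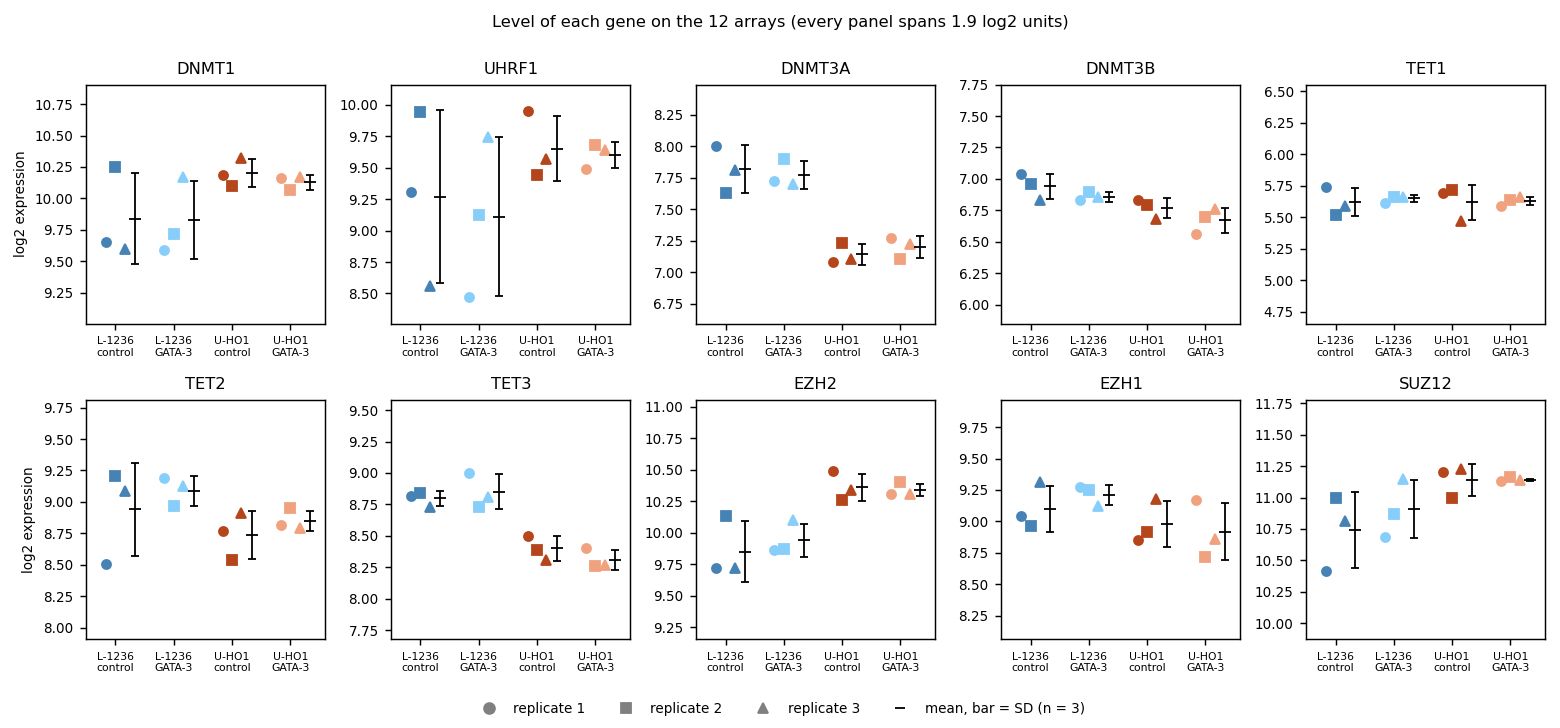
Log2 expression of the 10 genes on the 12 arrays, 1 panel per gene, with points for replicates 1 to 3 of each group and the mean with its SD (n = 3) beside them. Every panel spans the same number of log2 units, so spreads can be compared between panels. The U-HO1 points of DNMT3A and TET3 lie below and those of EZH2 above every L-1236 point. For DNMT3B the nearest points of the lines meet at 6.83, since values are drawn to 2 decimals.

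DNMT3A, the de novo enzyme often mutated in blood cancers, read 8.00, 7.63 and 7.81 on L-1236 control arrays 1, 2 and 3 and 7.08, 7.23 and 7.10 on those of U-HO1. On the arrays labelled GATA-3 shRNA it read 7.72, 7.90 and 7.70 in L-1236 and 7.27, 7.10 and 7.22 in U-HO1. Every U-HO1 array lay below every L-1236 array, and the highest U-HO1 value, 7.27, stayed under the lowest of L-1236, 7.63. The control means were 7.82 ± 0.19 in L-1236 and 7.14 ± 0.08 in U-HO1 (SD, n = 3 each), a log2 difference of -0.68 (SE 0.10, 95% interval -0.90 to -0.46, 1.6-fold lower in U-HO1, limma adjusted p = 0.000269). Over both labels the difference was -0.63 (adjusted p = 1.62e-05), and without the 4 arrays on which GATA3 went against the label it was -0.66 (adjusted p = 0.0141).

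DNMT3B, the other de novo enzyme, lay close to the median of the array and differed by far less. It read 7.04, 6.96 and 6.83 on L-1236 control arrays and 6.83, 6.79 and 6.68 on those of U-HO1, where the lowest L-1236 value exceeded the highest U-HO1 value only in the digits beyond these. The difference was -0.18 (SE 0.08, adjusted p = 0.134), and it passed with both labels together, at -0.18 (SE 0.06, adjusted p = 0.0215), where all 6 L-1236 arrays lay above all 6 of U-HO1, and was -0.19 without the 4 arrays (adjusted p = 0.206).

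Of the 3 oxidising enzymes, TET3 differed between the lines. TET3 read 8.82, 8.84 and 8.73 on the L-1236 control arrays and 8.50, 8.39 and 8.31 on those of U-HO1. On the arrays labelled GATA-3 shRNA it read 9.00, 8.73 and 8.81 in L-1236 and 8.40, 8.26 and 8.27 in U-HO1. The 12 arrays fell into separate ranges, 8.73 to 9.00 in L-1236 and 8.26 to 8.50 in U-HO1. The control means of 8.80 ± 0.06 and 8.40 ± 0.10 (SD, n = 3 each) differed by -0.40 (SE 0.09, 95% interval -0.59 to -0.21, 1.32-fold lower in U-HO1, limma adjusted p = 0.00401). The value was -0.47 over both labels (adjusted p = 5.52e-05) and -0.39 without the 4 arrays (adjusted p = 0.0196).

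TET2, a tumour suppressor of the blood lineages, read 8.51, 9.21 and 9.09 on the L-1236 control arrays and 8.77, 8.54 and 8.91 on those of U-HO1. On the arrays labelled GATA-3 shRNA it read 9.19, 8.97 and 9.13 in L-1236 and 8.82, 8.95 and 8.79 in U-HO1. These 2 groups did not overlap, and their difference was -0.24 (limma adjusted p = 0.342). The control groups overlapped through L-1236 control replicate 1, the lowest of all 12 arrays. The difference of the control groups was -0.20 (SE 0.16, adjusted p = 0.444). It was -0.41 without that replicate (adjusted p = 0.0234) but -0.06 without L-1236 control replicate 2 (adjusted p = 0.844). Leaving out the 4 arrays gave -0.21 (adjusted p = 0.623). The dimmer TET2 probe set gave -0.27 (adjusted p = 0.118) on the control arrays and -0.35 with both labels (SE 0.08, adjusted p = 0.0044), where the brighter one gave -0.22 (adjusted p = 0.164). The probe sets had the same sign and differed in whether they passed. TET1 read between 5.47 and 5.74 over all 12 arrays, and the lines differed by 0.01 (95% interval -0.17 to 0.19, adjusted p = 0.96).

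Of the Polycomb members, EZH2 was higher in U-HO1. EZH2 read 9.72, 10.13 and 9.72 on the L-1236 control arrays and 10.49, 10.26 and 10.34 on those of U-HO1. On the arrays labelled GATA-3 shRNA it read 9.86, 9.87 and 10.10 in L-1236 and 10.31, 10.40 and 10.31 in U-HO1. No array of L-1236 reached the lowest of U-HO1, and the nearest pair were L-1236 control replicate 2 at 10.13 and U-HO1 control replicate 2 at 10.26. The control means of 9.85 ± 0.24 and 10.36 ± 0.11 (SD, n = 3 each) differed by 0.51 (SE 0.12, 95% interval 0.26 to 0.76, 1.42-fold higher in U-HO1, limma adjusted p = 0.00546). Over both labels the difference was 0.45 (adjusted p = 0.000737). Without the 4 arrays on which GATA3 went against the label it was 0.46 and no longer passed (adjusted p = 0.0862).

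SUZ12, the scaffold that holds the complex together, read 10.42, 11.00 and 10.81 on the L-1236 control arrays and 11.20, 11.00 and 11.23 on those of U-HO1. It ran the same way as EZH2, with U-HO1 higher by 0.40 (SE 0.14, adjusted p = 0.061), and L-1236 replicate 2 met U-HO1 replicate 2. The difference moved both ways with the arrays used. It was 0.53 without L-1236 control replicate 2 (adjusted p = 0.0175) and 0.24 without L-1236 control replicate 1 (adjusted p = 0.237). It was 0.32 with both labels together (adjusted p = 0.0278), 0.24 after quantile normalization (adjusted p = 0.118) and 0.39 without the 4 arrays on which GATA3 went against the label (adjusted p = 0.221). Without L-1236 GATA-3 replicate 3 the value stayed at 0.40 and passed (adjusted p = 0.044). EZH1, the catalytic subunit known from resting cells, read 9.04, 8.96 and 9.31 in L-1236 and 8.85, 8.92 and 9.18 in U-HO1, a difference of -0.12 (95% interval -0.40 to 0.17, adjusted p = 0.607) that ran from -0.22 without U-HO1 control replicate 3 to -0.01 without L-1236 control replicate 3. The groups of EZH1 overlapped, with U-HO1 replicate 3 above L-1236 replicates 1 and 2.

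**Figure D2:**
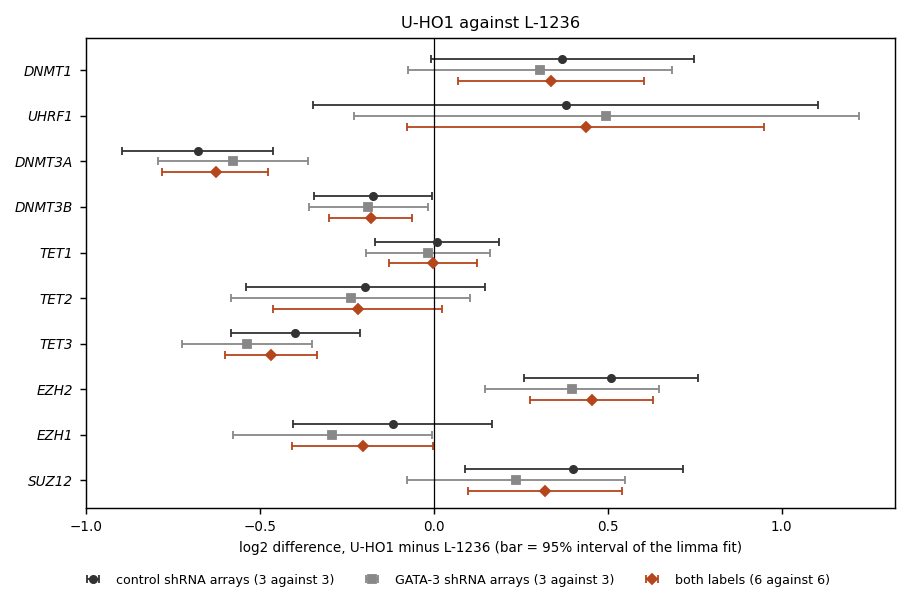
Log2 difference between the lines, U-HO1 minus L-1236, for each of the 10 genes with the 95% interval of the limma fit, on the control arrays (circles), the arrays labelled GATA-3 shRNA (squares) and both together (diamonds). The 3 estimates share the spread of 1 fit, and the intervals, which are not adjusted for multiple tests, lie below 0 for DNMT3A, DNMT3B and TET3 and above 0 for EZH2 in all 3 sets of arrays.

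The maintenance genes varied widely between the arrays of L-1236, and neither passed between the lines. DNMT1 read 9.65, 10.25 and 9.60 on the L-1236 control arrays and 9.59, 9.72 and 10.17 on those labelled GATA-3 shRNA. In U-HO1 it read 10.19, 10.10 and 10.32, then 10.16, 10.07 and 10.17. In L-1236 control replicate 2 and GATA-3 replicate 3 thus lay in the range of U-HO1, and the other 4 arrays lay below it. The control means of 9.84 ± 0.36 and 10.20 ± 0.11 (SD, n = 3 each) differed by 0.37 (SE 0.17, adjusted p = 0.158), a value that single arrays moved in both directions. It was 0.58 without L-1236 control replicate 2 (adjusted p = 0.012) and 0.25 without L-1236 control replicate 3 (adjusted p = 0.431). Without the 4 arrays on which GATA3 went against the label it was 0.19 (adjusted p = 0.657).

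UHRF1 had the widest spread of the 10. UHRF1 read 9.31, 9.94 and 8.56 on the L-1236 control arrays and 8.47, 9.12 and 9.74 on those labelled GATA-3 shRNA. In U-HO1 it read 9.95, 9.44 and 9.57, then 9.49, 9.68 and 9.64. The highest L-1236 arrays were again control replicate 2 and GATA-3 replicate 3, and both lay within the U-HO1 range. The difference on the control arrays was 0.38 (SE 0.33, 95% interval -0.35 to 1.10, adjusted p = 0.498), an interval that includes 0. It was 0.71 without L-1236 control replicate 2 (adjusted p = 0.131), 0.23 without U-HO1 control replicate 1 (adjusted p = 0.77), 0.02 without L-1236 control replicate 3 (adjusted p = 0.974) and 0.07 without the 4 arrays (adjusted p = 0.928). The dimmer UHRF1 probe set read 6.62 to 6.94 over the 12 arrays, had no such spread, and gave -0.05 between the lines (SE 0.08, adjusted p = 0.741), the opposite sign.

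The spread within a line was set beside that of all genes. UHRF1 spanned 1.47 log2 units over the 6 L-1236 arrays and 0.50 over the 6 of U-HO1. SUZ12 spanned 0.73 and 0.23, and DNMT1 0.66 and 0.26. The range was wider in L-1236 for 7 of the 10 members, 70.0%, and for 57.7% of all genes. The median range of the members was 0.39 in L-1236 and 0.25 in U-HO1, beside 0.30 and 0.28 over all genes.

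The arrays of L-1236 that were high in UHRF1, DNMT1, EZH2 and SUZ12 were also those highest in genes of the cell cycle. The mean of 22 such genes was 9.04, 9.58 and 8.97 on the L-1236 control arrays and 8.94, 9.14 and 9.65 on those labelled GATA-3 shRNA. In U-HO1 it was 9.85, 9.62 and 9.86, then 9.71, 9.80 and 9.77. For the list mean and for each of the 4 genes, L-1236 control replicate 2 and GATA-3 replicate 3 were the highest of the 6 L-1236 arrays. The next L-1236 array of the cell cycle list read 9.14. By rank, the same arrays were also highest for the mean of the DNA methylation genes listed below (9.02 and 9.11, next 9.00). So they were for the listed antagonists of Polycomb (9.19 and 9.22, next 9.18). In these 2 lists control replicate 2 was nearly level with the next array. For the listed genes of Polycomb repressive complexes 1 and 2, GATA-3 replicate 2 lay above control replicate 2. Whether these arrays differ as a whole was not tested. Of the 22 genes, 13 were higher and 2 lower in U-HO1 on the control arrays, with a median difference of 0.59 beside -0.002 over all genes, where 16.4% of genes were higher and 15.6% lower. The genes with the smallest p were CDK1 at 1.45 (adjusted p = 0.00017), MCM4 of the replicative helicase at 1.58 (adjusted p = 0.000516), the replication licensing factor CDT1 at 0.78 (adjusted p = 0.000924) and the topoisomerase TOP2A at 0.93 (adjusted p = 0.00298). With every array centred on its median the split was 12 higher and 0 lower. Over all probe sets centring gave 4549 higher and 3503 lower, against 4296 and 4047 as deposited, a general shift toward U-HO1. The split of the list was 5 higher and 1 lower without the 4 arrays on which GATA3 went against the label, where 18.2% of probe sets passed. Without L-1236 control replicate 1, 9 of 22 passed, where 22.0% of probe sets did. The part of the cell cycle genes in the line differences of EZH2, DNMT1, UHRF1 and SUZ12 was not tested.

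**Figure D3:**
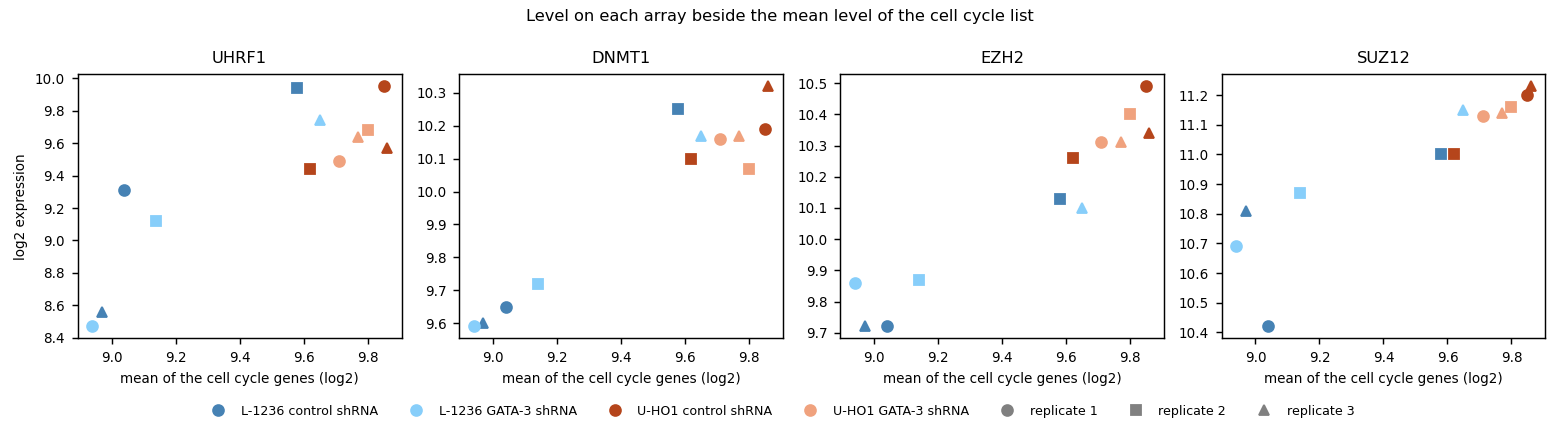
Log2 expression of UHRF1, DNMT1, EZH2 and SUZ12 on each array (vertical axis) against the mean log2 level of 22 cell cycle genes on the same array (horizontal axis), coloured by group with the replicate as the marker shape. In each panel 4 L-1236 arrays lie at the lower left with list means of 8.94 to 9.14, and L-1236 control replicate 2 and GATA-3 replicate 3, at 9.58 and 9.65, lie near the U-HO1 arrays.

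The design asks next what the shRNA against GATA-3 did in each line. Between the labels, GATA3 itself differed by 0.035 in L-1236 (SE 0.311) and by -0.324 in U-HO1 (SE 0.311). It passed in neither line. A fall of its RNA was thus not shown, so the comparisons below are between labels and cannot tell what loss of GATA-3 does. None of the 10 members passed in either line. In L-1236 the differences ran from -0.16 for UHRF1 to 0.16 for SUZ12 and TET2, with the smallest limma adjusted p at 0.925, and 0% of all probe sets passed an adjusted p under 0.05 or the submitters' rule (FDR no higher than 25% and a change of 1.5-fold or more). In U-HO1 they ran from -0.09 for DNMT3B to 0.11 for TET2, each with an adjusted p of 1, and again 0% of probe sets passed either rule. In L-1236, 22 probe sets passed the submitters' rule without its control replicate 3, and 1 did without U-HO1 GATA-3 replicate 1. At an unadjusted p under 0.05 the members numbered 0 in both lines, where 4.77% of probe sets passed in L-1236 and 1.05% in U-HO1. The labelled groups of every member overlapped in both lines, where 10.7% of probe sets in L-1236 and 3.79% in U-HO1 did not overlap.

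The intervals bound what these arrays could show. DNMT3A moved by -0.04 in L-1236 (95% interval -0.26 to 0.17) and by 0.06 in U-HO1 (-0.16 to 0.28). EZH2 moved by 0.09 in L-1236 (-0.16 to 0.34) and by -0.03 in U-HO1 (-0.28 to 0.23), and TET3 by 0.05 (-0.14 to 0.23) and -0.09 (-0.28 to 0.10). For UHRF1 the interval reached from -0.89 to 0.56 in L-1236 and from -0.775 to 0.677 in U-HO1. A fall of more than 1.5-fold could thus not be told from no change in either line. The median over members was 0.04 in L-1236 and -0.04 in U-HO1, beside 0.01 and 0.00 over all genes. The differences between the shRNA effects of the lines ran from -0.17 for EZH1 to 0.12 for UHRF1, with 0% of probe sets and 0 of 10 members past an adjusted p of 0.05, and 0 members at an unadjusted p under 0.05 where 2.46% of probe sets had one. Without the 4 arrays on which GATA3 went against the label, 0 of 10 members and 0 probe sets passed in either line.

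**Figure D4:**
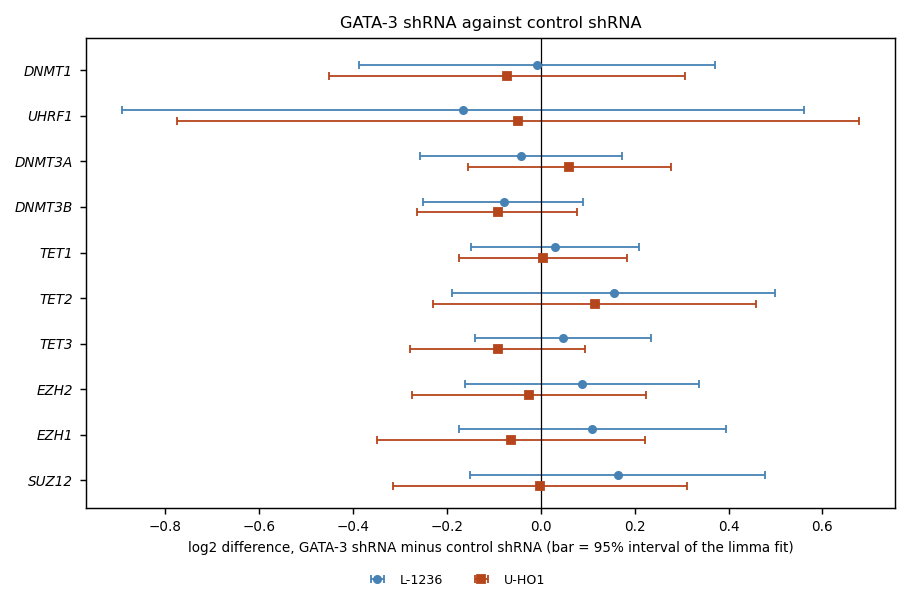
Log2 difference between arrays labelled GATA-3 shRNA and control shRNA for each of the 10 genes, in L-1236 (circles) and U-HO1 (squares), with the 95% interval of the limma fit. Every interval includes 0, and that of UHRF1 is the widest in both lines.

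Most other measured genes listed as partners of Polycomb repressive complex 2, not all of them subunits, differed between the lines. Of 12 such genes 7 were higher and 2 lower in U-HO1 on the control arrays, where 16.4% of all genes were higher and 15.6% lower, and their median was 0.58 beside -0.002 over all genes. EED, the core subunit that reads methylated lysine 27, had control means of 9.55 ± 0.26 in U-HO1 against 8.74 ± 0.06 in L-1236 (SD, n = 3 each), a difference of 0.81 (adjusted p = 0.000138). RBBP7, a histone-binding core subunit, was higher by 0.76 (adjusted p = 0.000566), and its paralogue RBBP4 differed by 0.08 (adjusted p = 0.703). The 3 Polycomb-like proteins, alternative partners that help the complex bind CpG islands, went in opposite directions. MTF2 was higher in U-HO1 by 0.63 (adjusted p = 0.00226). PHF1 was lower, at 7.96 ± 0.10 against 9.03 ± 0.11, a difference of -1.07 (adjusted p = 4.01e-06), and PHF19 was lower, at 10.05 ± 0.19 against 11.48 ± 0.21, a difference of -1.43 (adjusted p = 4.91e-06). LCOR, whose locus also encodes a partner of the complex, was higher by 0.58 (adjusted p = 0.00241). In the fit without the 4 arrays, where 18.2% of probe sets passed, 5 were higher and 2 lower.

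Of 25 listed genes of Polycomb repressive complex 1, which ubiquitinates histone H2A and binds methylated lysine 27, 21 were matched, and 1 was higher and 2 were lower in U-HO1 (median -0.05). That is 3 of 21, beside the 32.0% of all genes that passed. PCGF6, of a variant complex, was higher by 1.37 (adjusted p = 0.000752). CBX7, which binds methylated lysine 27, was lower by a log2 difference of -0.82 (adjusted p = 0.000139), and the ubiquitin ligase RING1 by one of -0.55 (adjusted p = 0.00127). With every array centred on its median 2 were higher and 2 lower, where 4549 probe sets were higher and 3503 lower. With both labels together 8 passed, where 35.1% of probe sets did, and 5 did without L-1236 control replicate 1, where 22.0% did.

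Of 16 enzymes and remodellers known to oppose Polycomb, 15 were matched, and 1 was higher and 5 were lower in U-HO1 (median -0.08). That is 6 of 15, beside 32.0% of all genes passing, with 16.4% higher and 15.6% lower. SMARCA4, the ATPase of the SWI/SNF remodeller, was lower by a log2 difference of -0.87 (adjusted p = 3.52e-06), and its partner SMARCB1 by one of -0.46 (adjusted p = 0.0301). The histone H3 lysine 4 methyltransferase KMT2B differed by -0.79 (adjusted p = 4.84e-05). ASXL2 and ASXL1, partners of the H2A deubiquitinase, differed by -0.55 (adjusted p = 0.00591) and -0.40 (adjusted p = 0.0158). KDM6B, which removes methyl groups from lysine 27, was the 1 that was higher, by 0.48 (adjusted p = 0.0116). Without the 4 arrays, where 18.2% of probe sets passed, 0 were higher and 4 lower.

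Of 28 further genes of DNA methylation, 27 were matched, and 10 were higher and 2 lower in U-HO1 (median 0.20), beside 16.4% of all genes higher and 15.6% lower. The largest difference by size was that of ZBTB38, which binds methylated DNA, at 9.10 ± 0.31 in U-HO1 and 11.11 ± 0.32 in L-1236 (SD, n = 3 each), a difference of -2.01 (4.03-fold, adjusted p = 5.93e-06), with the same sign in its other probe set. MBD2, a reader of methylated CpG, was higher by 0.86 (adjusted p = 8.29e-05), and APEX1, an endonuclease of the base excision pathway that follows TET oxidation, by 0.86 (adjusted p = 1.99e-05). MAT2B, of the enzyme that makes the methyl donor, was higher by 0.84 (adjusted p = 0.000673). IDH2, which makes a cosubstrate of the TET enzymes, was higher by 0.65 (adjusted p = 0.00547), and UHRF2, the paralogue of UHRF1, by 0.45 (adjusted p = 0.00477). The list had 5 higher and 1 lower without the 4 arrays, where 18.2% of probe sets passed. Of its genes 7 passed without L-1236 control replicate 1 and 7 without U-HO1 control replicate 3, where 22.0% and 22.7% of probe sets did. Between the shRNA labels 0 genes of the 5 lists passed the limma test in either line. Before adjustment 1 did at 0.05, a gene of the DNA methylation list in L-1236.

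**Figure D5:**
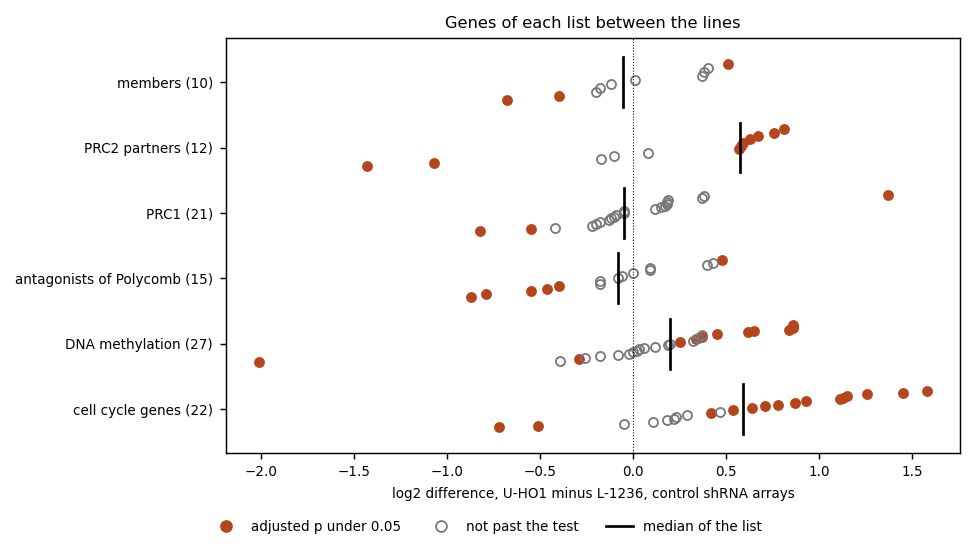
Log2 difference between the lines on the control arrays, U-HO1 minus L-1236, for every measured gene of the members and of 5 lists, with filled points at an adjusted p under 0.05, open points otherwise and a bar at the median of each list. The partners of Polycomb repressive complex 2 have a median of 0.58 with PHF1 and PHF19 far to the left, and the members have genes on both sides of 0.

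For each member that differed between the lines, the genes with the most similar course over the 12 arrays were found as those with the smallest root mean square difference after each gene was centred on its own mean. For DNMT3A these were TNFRSF14 at 0.075 log2 units, STMN3 at 0.085 and BICDL1 at 0.085. For TET3 they were FAM20B at 0.061, WDR31 at 0.066 and COA6 at 0.067. For EZH2 they were BCL9 at 0.052, ZNF142 at 0.055 and PRPF8 at 0.058. The measure follows the line difference above all, and these genes differed between the lines by -0.62 to -0.78, -0.45 to -0.48 and 0.45 to 0.58 respectively.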

How the data were processed

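The values are the table deposited by the authors, taken here as log2 expression from its range of 3.86 to 13.99. Per the submitters' processing notes, the upstream tool was R 2.8.1. How background was corrected, arrays were normalized and probe sets summarised, and on which genome build, is not given in the sources used here, so fold sizes rest on that reading of the scale. Probe sets were named through the platform's annotation, those with 1 symbol only.

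A single linear model held all 12 arrays and all 32321 probe sets, without a filter, with 1 mean for each of the 4 groups and 8 residual degrees of freedom. It was fitted by lmFit and eBayes of limma 3.58.1 under R 4.3.3. Adjusted p-values are those of Benjamini and Hochberg across the whole table. The script was run on simulated data with 200 changed probe sets and independent noise. Far more probe sets passed between the lines here, so that run checks the code and does not bear on the calls. The number of arrays limits the precision.

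The members and lists were chosen with earlier results of these data known. Genes were named as follows: the members, GATA3, up to 6 called genes of each list by smallest p (4 for cell cycle genes and markers), and 3 nearest genes per called member. RBBP4 and the markers IRF4, FUT4, MS4A1, CD3D, CD3E and CD3G were named outside this rule, after their values were seen. Alternatives were a replicate block, quantile normalization, median centring, a filter on dim probe sets, 1 probe set or the mean per gene, another prior, fewer arrays, a test against a fold of 1.5 and leaving out each array.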

Additional observations from a re-analysis of the deposited data

How the results depend on the processing

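Over 12 alternatives and 12 fits without 1 array each, DNMT3A, TET3 and EZH2 kept their direction between the lines, and each passed in every fit without 1 array. Many of these fits could not turn a direction. Without a GATA-3 shRNA array the differences stayed at -0.680, -0.399 and 0.509, since they come from the control arrays alone, and only the spread changed. The replicate block, the filter, the other prior, 1 probe set per gene and the test against a fold of 1.5 also left them unchanged. EZH2 did not pass without the 4 arrays on which GATA3 went against the label (0.455, adjusted p = 0.0862). Against a fold of 1.5, 0 members and 1404 probe sets passed, with 1 gene of DNA methylation, 2 partners of Polycomb repressive complex 2, 0 genes of complex 1, 1 antagonist and 2 cell cycle genes. Members called numbered 5 with both labels, where 35.1% of probe sets passed, and 3 to 5 without 1 array, where 21.8% to 25.6% did. Of 21 genes of complex 1, 6 passed after quantile normalization, where 8746 of 32321 probe sets did. With both labels 8 passed, on the GATA-3 shRNA arrays 5, where 24.7% of probe sets did, and without 1 array 3 to 5. Without the 4 arrays, where 18.2% of probe sets passed, 6 of 27 genes of DNA methylation and 6 of 22 of the cell cycle did. Without 1 array these were 7 to 12 and 9 to 16. SUZ12 passed among probe sets above the median (adjusted p = 0.042) and with 1 probe set per gene (adjusted p = 0.0453). By the submitters' criteria, 0 to 22 probe sets passed in L-1236 without 1 array, 22 of them without control replicate 3.

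Signs turned for values near 0. TET1 between the lines was -0.0012 after quantile normalization, -0.0037 with both labels, -0.017 on the GATA-3 shRNA arrays and -0.038 to 0.088 without 1 array. Between labels in L-1236, quantile normalization gave -0.013 for TET3 and -0.011 for EZH2, centring gave 0.055 for DNMT1 and 0.021 for DNMT3A, and TET3 was -0.062 without the 4 arrays. Without 1 array, DNMT1 ran from -0.18 to 0.20, UHRF1 from -0.52 to 0.17, DNMT3A from -0.13 to 0.051, TET1 from -0.017 to 0.093, TET2 from -0.056 to 0.29 and TET3 from -0.029 to 0.10. In U-HO1, SUZ12 was 0.0011 after quantile normalization, TET1 was -0.00011 after centring, SUZ12 and TET1 were 0.048 and -0.055 without the 4 arrays, and UHRF1 was 0.037 as the mean of its probe sets. Without 1 array there, UHRF1 ran from -0.15 to 0.10, TET1 from -0.074 to 0.052, EZH2 from -0.075 to 0.037, EZH1 from -0.19 to 0.038 and SUZ12 from -0.074 to 0.041. The cause of these changes was not tested.

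Same-numbered arrays of the same line deviated together at correlations of -0.40 to 0.32. With so few arrays in a group, these values cannot decide whether the numbers pair the samples. With the replicate block 3 members and 8290 probe sets passed between the lines, against 3 and 8343. In each comparison of labels 0 members and 0 probe sets passed.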
